A study of Mus musculus with 12 samples.

Results

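The TSC22 domain family consists of 4 mouse genes, Tsc22d1, Tsc22d2, Tsc22d3 and Tsc22d4, which were read as 4 of the 23420 rows of a gene count table. They were chosen by name, with the higher Tsc22d3 level after 4-OHT already known, so the mRNA changes below are given as a description without a test. BMAL1 regions were taken where they lay within 50 kb of the start of a member, from 4740 regions in all. Counted from the outermost start of each gene in the annotation of the count table, 5 regions met this rule, 2 at Tsc22d2 and 3 at Tsc22d4. With the RefSeq starts at hand also counted, 7 regions met it. The 2 added regions lay within 50 kb of an internal start of Tsc22d3. RefSeq starts were at hand for Tsc22d1 and Tsc22d3 only, so no other start of Tsc22d2 or Tsc22d4 was looked at. Tsc22d1 had none by either count.

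TSC22 domain proteins are small leucine zipper proteins that pair with each other, and their long forms bind NRBP1 and WNK kinases, regulators of cell volume and ion transport. TSC22D3, also known as GILZ, is a glucocorticoid-induced protein that in mouse and human cells binds NF-kB and AP-1 subunits, and its gene is also a FOXO target. BMAL1 pairs with CLOCK on E-box DNA, whose core letters are CACGTG, and PER and CRY proteins repress the pair.

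The 12 libraries came from embryonic fibroblasts of the 129/sv background. All of them were per1 -/-, per2 -/-, nr1d1 -/- and nr1d2 -/- and carried the PER2-ER transgene, and no line without the transgene was analysed here. ER commonly stands for the estrogen receptor, of which 4-hydroxytamoxifen (4-OHT) is a ligand. Cells received 1 µM 4-OHT or its solvent, 0.1% EtOH, for 4 h, and each treatment had 2 mRNA, 2 BMAL1 ChIP and 2 input libraries. What 4-OHT does through PER2-ER and what it does otherwise cannot be told apart in this design. The labels do not say that replicates were separate cultures, so every error and p-value below covers library-to-library spread that may be technical only.

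Reads counted in genes numbered 69292382 and 89695667 in the mRNA libraries with 4-OHT and 71633387 and 60267540 in those with EtOH. The ChIP libraries held 13502201 to 20712373 reads and the inputs 12481308 to 33454366. The fibroblast markers summed to 29320 to 31262 CPM (counts scaled to library size) with 4-OHT and 28690 to 31044 CPM with EtOH, with Thy1 at 0 in all 4 mRNA libraries. The epithelial, endothelial, leukocyte, muscle and neural marker lists each summed to at most 16.7 CPM in any of these libraries. Of these lists, the neural one held 2 genes called different by edgeR, Tubb3 and Sox2, and its sum was 11.6 to 12.1 CPM with 4-OHT and 13.1 to 13.8 CPM with EtOH. The part of other cell types in the results was not tested.

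The 3 sequence windows shown mark starts of Tsc22d1 and Tsc22d3, and 1 of them holds an E-box core. The Tsc22d3 regions were measured from the Tsc22d3 starts shown, and Tsc22d1 has no region. They are RefSeq promoter windows of build GRCm38.p6, 250 bases before to 50 bases after a start, printed 5′ to 3′ on the strand of the gene. The RefSeq windows at hand for the family numbered 8, with 5 for Tsc22d1, 3 for Tsc22d3 and 0 for Tsc22d2 and Tsc22d4. The first is the start of Tsc22d1 in the count table (chr14:76415571-76415870, plus strand), with CACGTG in capitals. The others are the internal start of Tsc22d3 nearest to its regions (chrX:140542619-140542918, minus strand) and its outermost start (chrX:140600473-140600772, minus strand).
Tsc22d1 count table start: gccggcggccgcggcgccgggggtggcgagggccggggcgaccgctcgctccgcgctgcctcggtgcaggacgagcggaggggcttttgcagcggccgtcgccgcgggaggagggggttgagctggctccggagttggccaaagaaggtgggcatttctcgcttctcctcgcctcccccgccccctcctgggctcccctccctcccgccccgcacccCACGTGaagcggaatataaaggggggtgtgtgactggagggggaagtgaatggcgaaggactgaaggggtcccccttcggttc
Tsc22d3 internal start: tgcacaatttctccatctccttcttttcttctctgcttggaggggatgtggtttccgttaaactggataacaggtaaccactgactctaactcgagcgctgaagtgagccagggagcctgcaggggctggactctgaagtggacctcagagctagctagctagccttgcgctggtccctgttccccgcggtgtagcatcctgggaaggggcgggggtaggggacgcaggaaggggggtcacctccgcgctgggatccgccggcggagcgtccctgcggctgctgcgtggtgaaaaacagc
Tsc22d3 outermost start: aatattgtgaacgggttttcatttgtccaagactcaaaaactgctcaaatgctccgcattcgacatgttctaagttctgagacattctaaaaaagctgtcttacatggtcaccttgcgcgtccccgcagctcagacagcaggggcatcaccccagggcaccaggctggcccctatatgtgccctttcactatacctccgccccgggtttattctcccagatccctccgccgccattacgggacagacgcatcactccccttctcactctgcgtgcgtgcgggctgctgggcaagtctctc

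CACGTG was searched on both strands, and it stood in 1 of the 8 windows, that of the Tsc22d1 start in the count table, where it ended 27 bases before the start. RefSeq also lists a Tsc22d1 start farther upstream, at 76414961, whose window held no CACGTG. Of 32851 RefSeq windows of the same length, 7.15% held CACGTG, and 37.2% of those overlapped a BMAL1 region. None of the 8 family windows overlapped a region, including the Tsc22d1 window with the motif. The BMAL1 regions at the family were not themselves searched, because their sequence was not at hand. Among the 2307 windows that did overlap a region, 37.9% held CACGTG. The letters CACGTT (in 4.68% of all windows) and GTAAACA (3.65%) were also searched on both strands, and none stood in a Tsc22d3 window. A match or its lack is a description of these letters only.

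The 4 genes lie on 4 chromosomes of mm10. Tsc22d1 spans 14:76415821-76507766 on the plus strand with 5 annotated exons, and Tsc22d2 spans 3:58415689-58466787 on the plus strand with 4. Tsc22d3 spans X:140539529-140600522 on the minus strand with 5 exons, and Tsc22d4 spans 5:137745969-137768453 on the plus strand with 7. The map of starts and regions shows how differently the regions are placed.

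**Figure D1:**
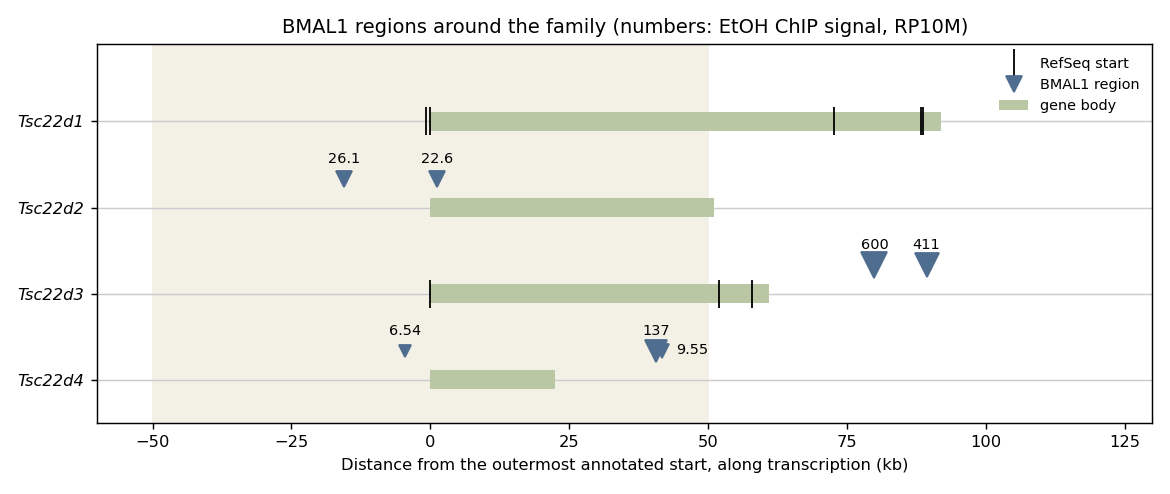
Position of each gene of the family and of BMAL1 regions, in kb from the outermost annotated start along the direction of transcription; shading marks 50 kb to either side, black ticks RefSeq starts (given for Tsc22d1 and Tsc22d3), and numbers the EtOH ChIP signal in RP10M. Both regions at Tsc22d3 lie outside the shading, 79.5 and 89.1 kb from the outermost start, and Tsc22d1 has none.

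BMAL1 occupancy was highest at the 2 Tsc22d3 regions, which lay beyond the 3′ end of the gene, and it was 5.13- and 6.50-fold lower with 4-OHT. Both stood between annotated genes of the count table. Region 1 (X:140510901-140511456, 556 bp) lay 31.2 kb from the internal start and 28.1 kb past the gene end. Region 2 (X:140520160-140520979, 820 bp) lay 21.7 kb from the internal start and 18.6 kb past the gene end. The regions were called by the authors on EtOH-treated cells, so a region bound with 4-OHT alone could not appear, and the EtOH ChIP libraries that chose the regions also enter the comparison of treatments.

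Region 1 of Tsc22d3 held 56.0 and 68.6 RP10M (reads scaled to a library of 10000000) after ChIP with 4-OHT, against 423 and 399 RP10M with EtOH. These values rest on 77 and 142 reads with 4-OHT and on 571 and 704 reads with EtOH. The treatments did not overlap, and the gap was far wider than the spread within a treatment. How many of all regions do not overlap is not given here, and 93.8% of them were called lower. The log2 change was −2.70 (SE 0.13, 95% interval −2.96 to −2.44), a 6.50-fold lower signal (edgeR quasi-likelihood test, Benjamini-Hochberg adjusted p = 1.06e-87). Of the 4740 regions, 76 (1.60%) fell more.

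Region 2 of Tsc22d3 held 111 and 122 RP10M with 4-OHT, against 586 and 615 RP10M with EtOH. It was the stronger of the pair in all 4 ChIP libraries. Its log2 change was −2.36 (SE 0.12, 95% interval −2.59 to −2.13), 5.13-fold lower (edgeR adjusted p = 9.98e-87). By EtOH signal region 2 ranked 41 and region 1 ranked 69 of 4740 regions. In reads, region 1 held 0.507 and 0.561 of region 2 with 4-OHT, against 0.722 and 0.649 with EtOH. The treatments did not overlap in this ratio, but it was computed for this pair of regions only, so nothing is read from it. The difference between the regions' changes was not tested.

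Signal was left at both regions after 4-OHT. The mean ChIP signal was 62.3 ± 8.85 RP10M at region 1 and 116 ± 8.15 RP10M at region 2 with 4-OHT (SD, n = 2), which is 15.4% and 19.5% of the EtOH level. The inputs held between 3.18 and 5.82 RP10M at these regions in all 4 input libraries. With 4-OHT, the ChIP exceeded the input 15.0-fold at region 1 (log2 3.91, SE 0.27, edgeR adjusted p = 6.26e-21). At region 2 it exceeded the input 29.3-fold (log2 4.87, SE 0.24, edgeR adjusted p = 8.69e-29), which ranked 12 of 4740 regions. With EtOH the ChIP stood 99.5-fold over input at region 1 and 165-fold at region 2, which is a description, since these libraries chose the regions.

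The change of the ChIP less the change of the input was −2.73 at region 1 (log2, SE 0.52, edgeR adjusted p = 3.88e-05). At region 2 it was −2.49 (SE 0.53, edgeR adjusted p = 1.51e-04). Over all regions the ChIP change had a median of −1.66 on the log2 scale, with quartiles at −1.99 and −1.32. Scaling on the regions sets that median to 0.02 with TMM factors, and relative to it region 1 still fell by 1.00 on the log2 scale (SE 0.13, edgeR adjusted p = 2.46e-12). Region 2 was lower too under that scaling (log2 −0.66, SE 0.11, edgeR adjusted p = 1.40e-07). With TMM factors the changes less input, −0.90 and −0.67, no longer passed (edgeR adjusted p = 0.771 and 0.914).

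The log2 changes at the Tsc22d3 regions are set here beside those of other strong regions. Strength was read from the EtOH signal, which is also the denominator of the change, so the choice itself favours larger falls. The 69 regions with at least the EtOH signal of Tsc22d3 region 1 had log2 changes of −2.79 to −0.34, with a median of −2.42. The regions nearest to 17 textbook CLOCK-BMAL1 target genes had changes of −2.79 to −1.87 with a median of −2.54, and 13 of them had more EtOH signal than each Tsc22d3 region. Both Tsc22d3 values thus lay within the range of other strong regions. The gene start nearest to both Tsc22d3 regions in the count table was that of Prps1, a phosphoribosyl pyrophosphate synthetase gene, at 54.3 and 63.6 kb. Prps1 stood at 47.1 and 45.1 CPM with 4-OHT, against 43.2 and 42.9 CPM with EtOH (log2 0.10, SE 0.07, edgeR adjusted p = 0.755). RefSeq also lists Gm39538, which the count table does not hold, with a start 23.0 kb from region 1 and 13.5 kb from region 2.

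**Figure D2:**
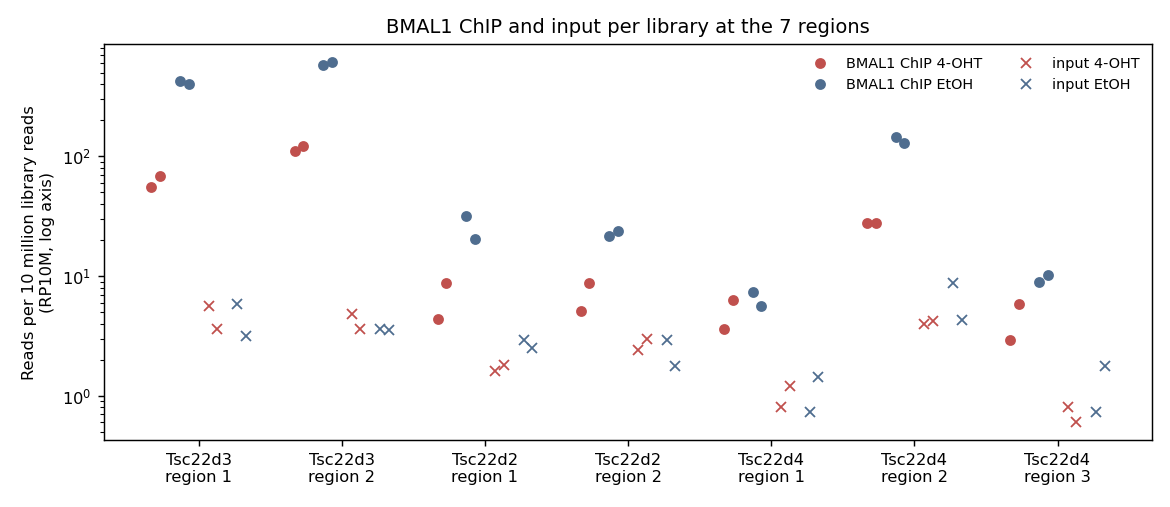
ChIP and input signal in RP10M per library (log axis) at the 7 regions, 4-OHT left of EtOH; points are libraries. The Tsc22d3 regions and Tsc22d4 region 2 stand far above their inputs with both treatments, and the ChIP points of the 2 treatments overlap at Tsc22d4 region 1 alone. The share of all regions without such overlap is not given here.

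The regions at Tsc22d2 were weak. Region 1 of Tsc22d2 (3:58400028-58400233), 15.5 kb upstream of the start, held 4.37 and 8.69 RP10M with 4-OHT, against 31.8 and 20.4 RP10M with EtOH. The log2 change was −1.88 (SE 0.37, edgeR adjusted p = 6.88e-07), but less the input change it was −1.31 (SE 0.82, edgeR adjusted p = 0.162). Scaled with TMM factors over the regions, the call at region 1 ended (log2 −0.19, edgeR adjusted p = 0.849). Region 2 of Tsc22d2 (3:58416721-58416962) lay in the first exon, 1.03 kb past the start, and held 5.09 and 8.69 RP10M with 4-OHT, against 21.5 and 23.8 RP10M with EtOH. The treatments did not overlap at either region. The share of all regions for which this holds is not given here, so nothing is read from it. The log2 change at region 2 was −1.65 (SE 0.37, edgeR adjusted p = 1.81e-05), and less the input change −2.03 (SE 0.74, edgeR adjusted p = 0.0204). With TMM factors this change was 0.03, beside a median of 0.02 over all regions.

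The 3 regions at Tsc22d4 differed among themselves, and each lay nearer to another gene. Region 2 of Tsc22d4 (5:137786404-137786954), 40.4 kb downstream, covered the start of Mepce, which encodes the capping enzyme of 7SK RNA. It held 27.7 and 27.5 RP10M with 4-OHT, against 145 and 129 RP10M with EtOH. The log2 change was −2.30 (SE 0.19, edgeR adjusted p = 1.01e-32), a 4.94-fold lower signal, and with 4-OHT the ChIP was still 6.58-fold over input (edgeR adjusted p = 7.06e-11). The call of a lower signal ended with DESeq2 and its own size factors (log2 −0.60, adjusted p = 0.0995), and the call over input ended with TMM factors (log2 0.83, edgeR adjusted p = 0.213).

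Region 1 of Tsc22d4 (5:137741390-137741480), 4.49 kb upstream of the start and 1392 bp from the start of Nyap1, held 3.64 and 6.28 RP10M with 4-OHT, against 7.41 and 5.67 RP10M with EtOH. The treatments overlapped, and the log2 change of −0.31 (95% interval −1.32 to 0.71) did not pass the test (edgeR adjusted p = 0.555). Region 3 of Tsc22d4 (5:137787725-137787813), at the start of Zcwpw1, which encodes a histone methylation reader, held 2.91 and 5.79 RP10M with 4-OHT, against 8.89 and 10.2 RP10M with EtOH. Its log2 change was −1.05 (SE 0.49, edgeR adjusted p = 0.0325), and less the input change it was −0.00 (SE 1.19). That call rested on 4 and 12 reads with 4-OHT and 12 and 18 with EtOH, and it ended when 4-OHT replicate 1 (adjusted p = 0.153), EtOH replicate 1 (0.0815) or EtOH replicate 2 (0.180) was left out. It also ended with DESeq2 on library totals (log2 −1.10, adjusted p = 0.217), and scaling on the regions turned the change to 0.63 with TMM factors and 0.60 with DESeq2.

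In all, 6 of the 7 regions were called lower with 4-OHT, beside 93.8% of all regions, and of the 5 at outermost starts 4 were. The medians were −1.88 over the 7 and −1.65 over the 5, beside −1.66 over all regions. All 7 were above input with 4-OHT, beside 80.6% of all regions, and all 7 with EtOH, beside 99.5%. Without 4-OHT ChIP replicate 2, 3 of the 7 were above input with 4-OHT. Less the input change, 4 of the 7 were lower, beside 50.5% of all regions. In the inputs alone, 0 of the 7 were called by edgeR (0% of 4739 regions, 218 of which had an unadjusted p under 0.05, and DESeq2 called 0). These shares are near the background, and the 7 regions held 1 to 14 input reads each per library.

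**Figure D3:**
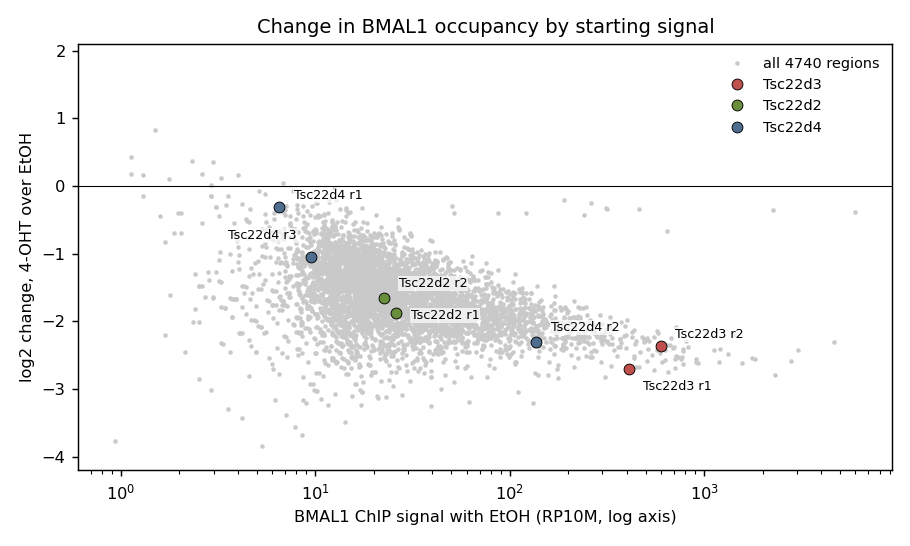
log2 change of BMAL1 signal, 4-OHT over EtOH, against EtOH signal in RP10M (log axis) for all regions (grey) and the 7 regions at the family (coloured). Tsc22d3 regions lie at the strong end with changes of −2.70 and −2.36, and Tsc22d4 region 1 lies near 0 at the weak end.

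Of the 4 mRNAs, Tsc22d3 was 1.59-fold higher with 4-OHT, and the other 3 were at most 1.13-fold higher. Tsc22d3 mRNA stood at 56.3 and 54.3 CPM with 4-OHT, against 34.9 and 34.5 CPM with EtOH, from 3924 and 4910 reads with 4-OHT and 2486 and 2064 with EtOH. The treatments did not overlap. The mean was 55.3 ± 1.44 CPM with 4-OHT and 34.7 ± 0.292 CPM with EtOH (SD, n = 2 each), and the log2 change was 0.67 (SE 0.07, 95% interval 0.53 to 0.82). It was number 8 by size among the 106 called rises, and number 98 by log2 change among all 13216 tested genes.

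Tsc22d1, which encodes TSC-22, a TGF-β-stimulated protein, stood at 148 and 155 CPM with 4-OHT, against 140 and 127 CPM with EtOH. These groups did not overlap, which held for 36.9% of all tested genes in either direction. The log2 change was 0.18 (SE 0.07, 95% interval 0.05 to 0.31). Tsc22d2 stood at 140 and 137 CPM with 4-OHT, against 135 and 141 CPM with EtOH, and its log2 change was 0.01 (95% interval −0.12 to 0.14). Tsc22d4 stood at 82.2 and 88.7 CPM with 4-OHT, against 84.5 and 78.7 CPM with EtOH, with a log2 change of 0.07 (95% interval −0.07 to 0.20). The 2 treatments overlapped for both Tsc22d2 and Tsc22d4. In the authors' deposited table, the log2 change was 0.01 (SE 0.05) for Tsc22d2 and 0.05 (SE 0.06) for Tsc22d4. The authors' values for Tsc22d1 and Tsc22d3 are not given here.

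By the call rule used over all genes (edgeR, adjusted p below 0.05), 1 of the 4 genes was called, beside 2.44% of the 13216 tested genes in either direction, 0.802% higher and 1.63% lower. The family was chosen on this contrast, so nothing is read from that count. A 2 against 2 exact permutation test cannot give a two-sided p below 0.33.

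**Figure D4:**
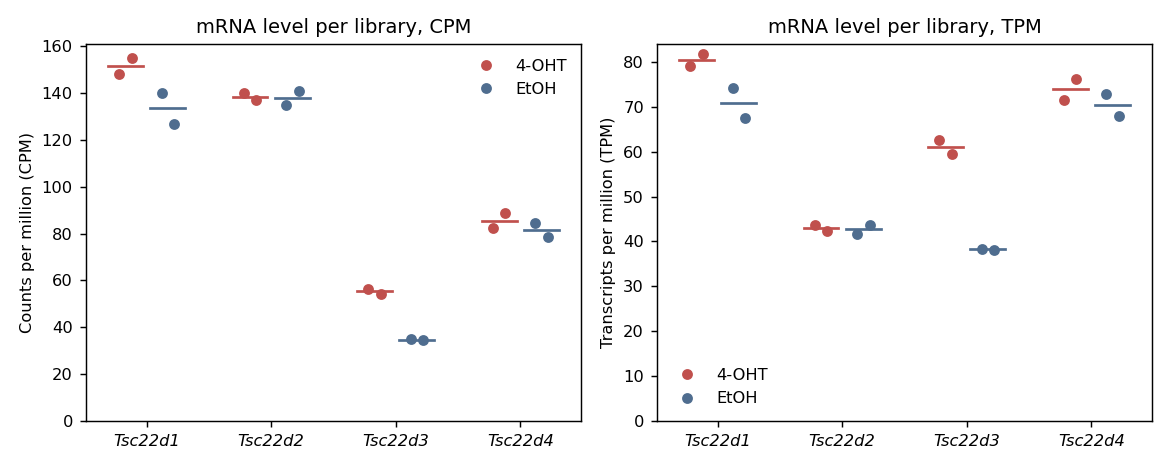
mRNA level of the 4 genes in each library, in CPM and in TPM (CPM corrected for exon length), with 4-OHT left of EtOH; points are libraries and horizontal lines are means. The treatments are set well apart at Tsc22d3 alone.

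Per transcript length, Tsc22d3 moved up the order of the family. In TPM, for which counts are divided by the summed exon length of a gene, Tsc22d3 stood at 62.5 and 59.5 with 4-OHT, against 38.4 and 38.0 with EtOH. With 4-OHT the order was Tsc22d1 (80.4 ± 1.98 TPM), Tsc22d4 (73.9 ± 3.29), Tsc22d3 (61.0 ± 2.14) and Tsc22d2 (43.1 ± 0.977), the same in both libraries. With EtOH Tsc22d1 (70.8 ± 4.58 TPM) and Tsc22d4 (70.4 ± 3.44) changed places between libraries, followed by Tsc22d2 (42.7 ± 1.40) and Tsc22d3 (38.2 ± 0.267). Tsc22d3 made up 24.3% and 22.9% of the family's summed TPM with 4-OHT, against 16.9% and 17.5% with EtOH. Tsc22d1 and Tsc22d3 have several starts and forms, so their summed exon length may exceed that of the transcripts present.

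**Figure D5:**
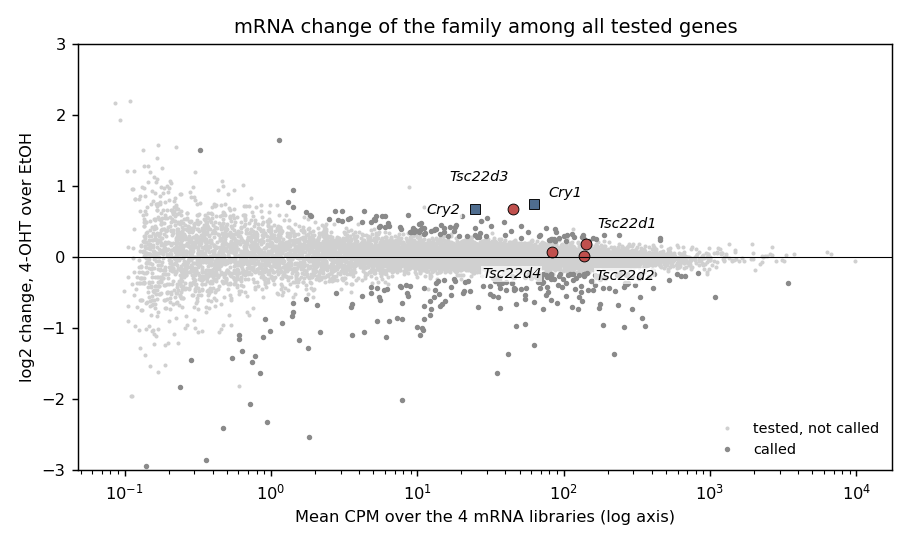
log2 mRNA change, 4-OHT over EtOH, against mean CPM (log axis) for the tested genes; dark points are called by edgeR, and the family and Cry1 and Cry2 are marked. Tsc22d3 stands at 0.67 beside Cry1 at 0.74 and Cry2 at 0.68, and the other 3 genes lie between 0.01 and 0.18. Cry1 and Cry2 were among the genes picked for profiles near that of Tsc22d3, so values of like size follow from that choice. Of 16 tested textbook CLOCK-BMAL1 target genes, 6 were called higher and 3 lower. Nr1d1 and Nr1d2, both knocked out in these cells, are among the lower ones.

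The 5 genes nearest to Tsc22d3 in shape over the 4 mRNA libraries were named by the distance between their centred log2 CPM profiles. They were picked on these same libraries, so changes of like size follow from the choice, and nothing is read from the match. Cr2 (0.044), Sp8 (0.070) and C130060C02Rik (0.095) came first, and none of them was called or exceeded 1.28 CPM in any library. Cry1, a clock repressor gene, followed at a distance of 0.116, with 79.3 and 78.7 CPM with 4-OHT, against 49.5 and 45.0 CPM with EtOH. Cry2, its paralog, stood at a distance of 0.123, with 29.4 and 31.9 CPM with 4-OHT, against 19.4 and 18.8 CPM with EtOH. Their log2 changes were 0.74 (SE 0.07) and 0.68 (SE 0.08). The textbook CLOCK-BMAL1 target genes went both ways in mRNA. Of 16 tested, edgeR called 6 higher, with Cry1 and Cry2 among them, and 3 lower, and 7 were not called. The 3 lower were Nr1d1 (log2 −1.63), Nr1d2 (−1.24) and Per3 (−0.47). DESeq2 called 8 of the 16 in either direction. Nr1d1, Nr1d2, Per1 and Per2, the genes knocked out in these cells, are among the 16, and what their reads stand for was not tested. A region lay within 50 kb of the outermost start of 57 of the 106 genes called higher (53.8%), beside 45.5% of 13197 tested genes, and by that measure Tsc22d3 counts as having none.

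Genes that work with the family, or are known to be induced by the same signals, were read from lists, each without the family's own members. Over all tested genes 2.44% were called by edgeR in either direction. Counts at an unadjusted p under 0.05 are also given. The share of all tested genes at that threshold is not given here, so nothing is read from them. Of 14 WNK and NRBP partner genes, 13 were tested and 0 were called by edgeR, with 0 at an unadjusted p under 0.05 and 0 by DESeq2. Their median log2 change was −0.04, beside 0.00 over all genes. Of 16 tested glucocorticoid-induced genes other than Tsc22d3, 1 rose, 1 fell and 8 had an unadjusted p under 0.05, with a median log2 change of 0.07. The rise was that of Cebpd (log2 0.42), a C/EBP transcription factor gene, at 8.73 ± 1.00 CPM with 4-OHT and 6.53 ± 0.0398 CPM with EtOH (SD, n = 2 each, edgeR adjusted p = 0.0136), and DESeq2 did not call it. The fall was that of Errfi1 (log2 −0.45), which encodes an inhibitor of EGFR, and DESeq2 called it too. Fkbp5 (log2 0.15), a glucocorticoid receptor co-chaperone gene, and Klf9 (0.03) did not pass.

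Of 16 FOXO target genes other than Tsc22d3, 2 rose, Txnip (log2 0.23) and Cited2 (0.26), 0 fell and 5 had an unadjusted p under 0.05, with a median log2 change of 0.08. DESeq2 called the same 2 genes. Txnip, which encodes a thioredoxin-binding protein, averaged 491 ± 5.96 CPM with 4-OHT and 418 ± 3.85 CPM with EtOH (edgeR adjusted p = 0.0247). Of the TGF-β early genes other than Tsc22d1, 3 rose (Junb at 0.35, Klf10 at 0.31 and Bhlhe40 at 0.31 log2), and those that fell included Cyr61 (−0.27). Of 9 tested hypertonic stress genes other than Tsc22d2, 0 rose, 1 fell and 2 had an unadjusted p under 0.05, with a median log2 change of 0.05. The fall was that of Nfat5 (log2 −0.26), the osmotic stress factor, at 572 ± 11.7 CPM with 4-OHT and 686 ± 10.5 CPM with EtOH. Of 12 AP-1 and NF-kB subunit genes, Junb rose, Fosl2 fell and 5 had an unadjusted p under 0.05, with a median log2 change of 0.07. Fosl2, an AP-1 subunit gene, was 1.95-fold lower, at 125 ± 3.38 CPM with 4-OHT and 244 ± 14.9 CPM with EtOH (edgeR adjusted p = 5.94e-15).

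Of the genes in the count table, those with a start within 50 kb of the family's regions were Nyap1, Ppp1r35, Mepce, Zcwpw1 and Pilra, all around Tsc22d4, and 4 of them were tested. None was called by edgeR. Nyap1 averaged 24.9 ± 2.13 CPM with 4-OHT and 21.3 ± 1.16 CPM with EtOH (log2 0.23, SE 0.08, adjusted p = 0.204). Mepce, whose start region lost 4.94-fold of its BMAL1 signal, averaged 81.0 ± 2.47 CPM with 4-OHT and 77.2 ± 1.60 CPM with EtOH (log2 0.07, SE 0.07, edgeR adjusted p = 0.837). Zcwpw1 averaged 23.0 ± 0.978 CPM with 4-OHT and 23.3 ± 2.24 CPM with EtOH (log2 −0.02, edgeR adjusted p = 0.987).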

How the data were processed

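Per the file headers, the authors ran featureCounts v1.5.0-p1 on reverse-stranded reads over UCSC mm10 exons, and its gene counts were deposited. The authors also deposited counts of reads in 4740 regions per ChIP and input library, with a score, a fold enrichment and a −log10 p and q per region, none of which entered a test. The deposited signal table, named RPKM, holds 5 plus RP10M, from which library totals followed. The authors' deposited table gives log2 changes, p-values and a score. Per the submitters' processing notes, bedtools 2.25.0 and DESeq2 were used. No aligner is named in these sources.

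Gene counts (TMM, default expression filter) and region counts (library totals) were each fitted whole with edgeR 4.0.16 in R 4.3.3 by quasi-likelihood with Benjamini-Hochberg adjustment, calls at 0.05, checked on simulated data. Alternatives were DESeq2 1.42.0, other scalings and filters, a replicate block and leaving out libraries. CPM and TPM were computed from the counts. RefSeq starts of GRCm38.p6 were used beside mm10, since 77.6% of 16308 shared genes have identical starts. The members and lists were chosen with earlier results of these data known. Named genes were the 4 members, genes within 50 kb of their regions, up to 3 called list genes per direction and the 5 nearest profiles. List genes given as not passing, and Prps1 and Gm39538, were chosen after their values were seen. The TGF-β list is not reported here in full. The EtOH inputs differed by no more than counting noise over regions (chi-square 2184 on 2177 degrees of freedom) but have different totals, and were kept as 2.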

Additional observations from a re-analysis of the deposited data

How the results depend on the processing

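In all, 334 values of 33 results were recomputed, and 274 kept direction, call and, for counts, a value within 1.5 times. The log2 change of Tsc22d3 mRNA, a description, lay between 0.64 and 0.70, and both Tsc22d3 regions stayed lower (region 1 fell by 1.00 on the log2 scale at the least, and region 2 had −2.44 to −0.65). Scaling on the regions moved most region counts. With TMM factors, 228 regions were lower and 66 higher (against 4445 and 0), with 3 of the 7 lower; 232 were above input with 4-OHT (2 of the 7), 375 with EtOH (2 of the 7), 5 lower less input (0 of the 7) and 1 different in the inputs. DESeq2 with its own size factors gave 141 lower and 13 higher, with 2 of the 7 lower and no adjusted p for 4. These scalings reversed Tsc22d2 region 2 (0.03 and 0.01), Tsc22d4 region 1 (1.37 and 1.34) and Tsc22d4 region 3 (0.63 and 0.60), and TMM also reversed Tsc22d2 region 2 over input with 4-OHT (−0.55). DESeq2 with library totals gave 1037 lower less input (against 2395) and 5 of the 7 regions lower. Within 10 kb of outermost starts lay 2 regions, and within 50 kb of any start at hand 7, against 5.

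Leaving out 1 library gave 40 to 196 genes higher (106 with all), 140 to 247 lower (216 with all), and Tsc22d2 log2 changes of −0.02 to 0.04. Removing EtOH replicate 2 left 40 rises and 140 falls. Rises numbered 44 without 4-OHT replicate 2 and 67 once EtOH replicate 1 was removed, and they reached 196 when 4-OHT replicate 1 was left out. It gave 5 to 6 of the 7 regions lower, 3 to 7 above input with 4-OHT, 653 to 2319 regions lower less input, and 2 to 4 of the 7. The lowest of these came without input 4-OHT replicate 2 (653), and without input EtOH replicate 2 there were 1591. Without ChIP 4-OHT replicate 2, the above-input calls ended at both Tsc22d2 regions and Tsc22d4 regions 1 and 3. DESeq2 called 62 genes higher. The replicate block gave 60 higher, 152 lower and 4377 regions lower, with 6 of the 7 lower. Same-numbered libraries deviated together with correlations of −0.17 (mRNA), 0.02 (ChIP) and 0.02 (input), so the numbers were not taken as pairs. A crossed pairing, added after seeing the data, gave 518 genes higher and 611 lower. The Tsc22d1 log2 change stayed at 0.18, with an SE of 0.04 against 0.07 in the main fit. With that pairing edgeR called Tsc22d1, which the main fit did not. The labels do not give this pairing and the family was chosen on this contrast, so nothing is read from that call. The causes of these shifts were not tested. The weak regions held few reads, with ChIP counts as low as 4 with 4-OHT.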

Other observations

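Of the 69 regions with at least the EtOH signal of Tsc22d3 region 1, 3 lay more than 50 kb from every outermost annotated start, and both Tsc22d3 regions were among them. The other lay between genes at 15:81522955-81523695, 56.6 kb from the start of Rbx1, and held 164 RP10M with 4-OHT, against 804 RP10M with EtOH (log2 −2.29, SE 0.11). It was named after its values were seen. Tsc22d3 region 2 ended 586 bp from the lower coordinate of Gm39538 as RefSeq lists it, and region 1 ended 10109 bp from it.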
